A study of Homo sapiens with 12 samples.

Results

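The DNAJ genes encode the HSP40 or J-domain proteins, and they were chosen by symbol alone: every gene named DNAJA, DNAJB or DNAJC plus a number, with at least 10 counts summed over all libraries. This rule found 40 of the 24180 gene symbols counted, 4 in subfamily A, 10 in subfamily B and 26 in subfamily C, and left out DNAJB7 and DNAJB8 with 2 counts each. RNA was sequenced in 12 libraries of 143B, an established human osteosarcoma cell line that the labels give as wild type. The groups hold 3 libraries each and are named M-BSG-Hot, M-BSG, BSG and NC, the last being the control, and the sample titles call M-BSG-Hot "5-MNP-BSG (+)" and M-BSG "5-MNP-BSG". The series title concerns borosilicate bioactive glass and moderate magnetic hyperthermia against osteosarcoma. All 12 samples, NC included, carry one identical treatment text that names the 5-MNP-BSG system and an alternating magnetic field (20A; 500H), so the material, field, dose and exposure time of each group are not told apart by the labels, and BSG is taken here only as the group so named. All cells grew in DMEM with 10% fetal bovine serum, and the labels name no separate cultures behind the 3 libraries of each group, so p-values measure the spread between these libraries, which may be technical.

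J-domain proteins are the partners that set HSP70 chaperones to work: the J domain stimulates the ATPase of an HSP70, which then closes on a client protein, and a nucleotide exchange factor later releases it. Subfamily A resembles bacterial DnaJ with a zinc finger region, subfamily B shares the J domain and a glycine- and phenylalanine-rich stretch without the zinc finger, and subfamily C shares little beyond the J domain and includes proteins bound to ribosomes, mitochondria, vesicles or chromatin. DNAJB1 is the classical heat-inducible cytosolic member, DNAJA1 an abundant cytosolic partner of HSPA8, and DNAJB9 an endoplasmic reticulum member induced by the unfolded protein response. Heat shock factor 1 binds alternating GAA and TTC units in promoters of heat-inducible chaperone genes.

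A set of 3 promoter windows is shown because the windows belong to the called DNAJ genes (adjusted p under 0.05 in at least 1 comparison below) that hold a heat shock element core, and because each of these genes was called higher in BSG and in M-BSG than in NC. The windows are from RefSeq, assembly GRCh38.p14, run from 250 bases before to 50 after an annotated transcript start, and are written on the gene's strand. Capitals mark the cores GAANNTTC and TTCNNGAA, searched on both strands, on which each reads the same; the cores overlap where alternating units follow each other. The DNAJA1 window lies at chr9:33025023-33025322 on the plus strand, the DNAJB1 window (1 of its 3) at chr19:14518348-14518647 on the minus strand, and the DNAJB6 window at chr7:157336754-157337053 on the plus strand.
DNAJA1: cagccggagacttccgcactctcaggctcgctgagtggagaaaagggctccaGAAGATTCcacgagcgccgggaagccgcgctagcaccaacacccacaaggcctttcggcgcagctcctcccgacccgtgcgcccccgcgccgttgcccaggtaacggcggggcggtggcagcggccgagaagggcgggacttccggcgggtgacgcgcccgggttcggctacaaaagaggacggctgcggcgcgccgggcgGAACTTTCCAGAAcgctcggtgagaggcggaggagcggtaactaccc
DNAJB1: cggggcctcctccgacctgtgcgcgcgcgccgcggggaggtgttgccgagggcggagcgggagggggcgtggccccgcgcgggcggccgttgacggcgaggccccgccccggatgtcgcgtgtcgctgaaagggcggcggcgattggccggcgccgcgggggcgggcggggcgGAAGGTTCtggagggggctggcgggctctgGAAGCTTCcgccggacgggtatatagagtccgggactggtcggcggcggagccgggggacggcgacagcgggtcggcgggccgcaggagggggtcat
DNAJB6: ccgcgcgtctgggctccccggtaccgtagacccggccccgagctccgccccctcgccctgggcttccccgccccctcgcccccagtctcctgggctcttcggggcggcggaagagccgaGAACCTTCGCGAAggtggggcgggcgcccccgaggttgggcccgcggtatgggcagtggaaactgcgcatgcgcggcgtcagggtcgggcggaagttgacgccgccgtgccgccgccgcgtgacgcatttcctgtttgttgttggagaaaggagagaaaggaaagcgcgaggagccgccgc
The DNAJA1 window holds 3 alternating units, GAA then TTC then GAA with a pair of bases between neighbours, at positions 4 to 16 after the start, and a further core at positions -198 to -191. The DNAJB6 window holds the same arrangement at positions -131 to -119. The DNAJB1 window holds 2 separate GAANNTTC cores, at positions -77 to -70 and -47 to -40. Another DNAJB1 window, not shown, holds a GAANNTTC core at positions 2 to 9, and the remaining DNAJB1 window holds no core. Of the 40 genes, 37 had at least 1 window, 49 windows in all. Such a run of 3 units stood in 2 of these 49 windows (4.08%), against 0.49% of all 35116 windows in the table, and either core in 8 of them (16.3%), against 13.5%. The genes with a core were DNAJA1, DNAJA4, DNAJB1, DNAJB4, DNAJB6, DNAJC6 and DNAJC15. Of these, DNAJA4, DNAJB4, DNAJC6 and DNAJC15 were not called by edgeR in any comparison. The called DNAJB9, DNAJB11, DNAJC2 and DNAJC9 hold no core in their windows. A DNAJA4 window holds 2 GAANNTTC cores, and DNAJA4 had a log2 fold change of 0.19 in BSG against NC (edgeR adjusted p = 0.146). The endoplasmic reticulum stress element (CCAAT and CCACG with 9 bases between, both strands) matched 0 of the 49 windows, against 0.0769% of all windows. CCAAT alone matched 19 (38.8%, against 34.6%). These are matches of letters in a fixed window and were tested against nothing.

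Total counts were 34434993 to 38163152 per library, of which the DNAJ genes took 0.252% to 0.284%. Levels below are CPM, counts scaled by TMM to a common library total, unless FPKM is named. The mesenchymal markers VIM (median 3778 CPM), CD44 (727.5 CPM) and SPARC (336.9 CPM) were high, RUNX2 (14.8 CPM), TWIST1 (12.6 CPM) and COL1A1 (8.08 CPM) were lower, and THY1 was at 0 in 11 of 12 libraries. Of the markers of other cells, CD68 (135.7 CPM), EPCAM (15.6 CPM) and PECAM1 (1.01 CPM) were counted in every library, while the medians of CSF1R, CDH5, VWF, KDR, CDH1 and KRT5 were under 1 CPM. The 3 epithelial markers summed to 14.7 to 16.8 CPM in M-BSG-Hot, 14.2 to 17.99 in M-BSG and 16.5 to 21.9 in BSG, against 13.8 to 15.4 in NC, so BSG lay above NC. The 4 endothelial markers summed to 1.82 to 2.68 CPM in M-BSG-Hot, 1.29 to 1.78 in M-BSG and 1.098 to 1.54 in BSG, against 1.42 to 1.45 in NC, so M-BSG-Hot lay above NC. CD68 and CSF1R summed to 119.6 to 165.5 CPM in M-BSG-Hot, 124.2 to 152 in M-BSG and 127.5 to 136.6 in BSG, against 133.1 to 152 in NC, and all groups overlapped.

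Library composition also moved with BSG, the group with the most calls below. Ribosomal protein genes took 6.89% to 8.88% of counts in M-BSG-Hot, 6.84% to 9.02% in M-BSG and 7.61% to 10.3% in BSG, against 6.99% to 7.6% in NC. Mitochondrial genes took 6.58% to 7.28% in M-BSG-Hot, 6.56% to 7.82% in M-BSG and 6.76% to 7.47% in BSG, against 5.98% to 6.75% in NC. Both shares were higher in every BSG library than in every NC library, but the nearest libraries almost met. BSG 2 had 7.607% ribosomal and 6.763% mitochondrial, against 7.6% and 6.753% in NC 1. The part of these shares and markers in the results was not tested. The highest ribosomal shares within their groups were those of M-BSG-Hot 3, M-BSG 1 (9.02%) and BSG 1 (10.3%). By a chi-square per degree of freedom over counts, BSG 1 and M-BSG 1 stood apart, with 44.9 and 60.9 for BSG 1 and 32.8 and 56.2 for M-BSG 1 against the other libraries of the group. M-BSG-Hot was spread out, with 15.4 for libraries 1 and 2, 17.8 for 2 and 3, and 40.4 for 1 and 3. The highest or lowest library of a group was M-BSG-Hot 3 for 28 of the 39 tested DNAJ genes (71.8%, against 75% of all genes), M-BSG 1 for 35 (89.7%, against 82.4%), BSG 1 for 34 (87.2%, against 83.3%) and, in NC, NC 1 for 31 (79.5%, against 75.5%). M-BSG-Hot 1 was likewise the highest or lowest for 28 (71.8%, against 71.4%), so M-BSG-Hot 3 did not stand out from it by this count. Results are also given with BSG 1, M-BSG 1 and M-BSG-Hot 3 left out together where that changes a call.

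In the deposited FPKM, which divide by a gene length, the DNAJ genes spanned several orders of magnitude. The ranks depend on that length: DNAJC10, with 96333 counts in all and a length of 20144 bases, stood at rank 18 with 10.8 FPKM. DNAJA1 had the highest mean over the 12 libraries, 156 FPKM. It was followed by the endoplasmic reticulum cofactor DNAJB11 with 77.3 FPKM, DNAJC8, a splicing-associated protein, with 64.2 FPKM, and DNAJC7, a co-chaperone of HSP70 and HSP90, with 53.0 FPKM. DNAJC9, which handles histones H3 and H4, had 49.5 FPKM and DNAJC11, a protein of mitochondrial membrane organisation, 48.3 FPKM. DNAJB1 stood at rank 10 with 30.9 FPKM, and DNAJB9 at rank 21 with 8.77 FPKM. At the low end were DNAJC12 (1.13 FPKM), DNAJC27 (0.732 FPKM), DNAJC28 (0.382 FPKM) and DNAJB13 (0.018 FPKM). DNAJB13, a testis and cilium protein, had 33 counts in all and was not tested: its counts were 0, 5 and 5 in M-BSG-Hot, 1, 1 and 3 in M-BSG, 2, 5 and 5 in BSG, and 2, 2 and 2 in NC. The count of 0 in M-BSG-Hot 1 allows up to 0.0813 CPM before TMM scaling, for counting error only.

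**Figure D1:**
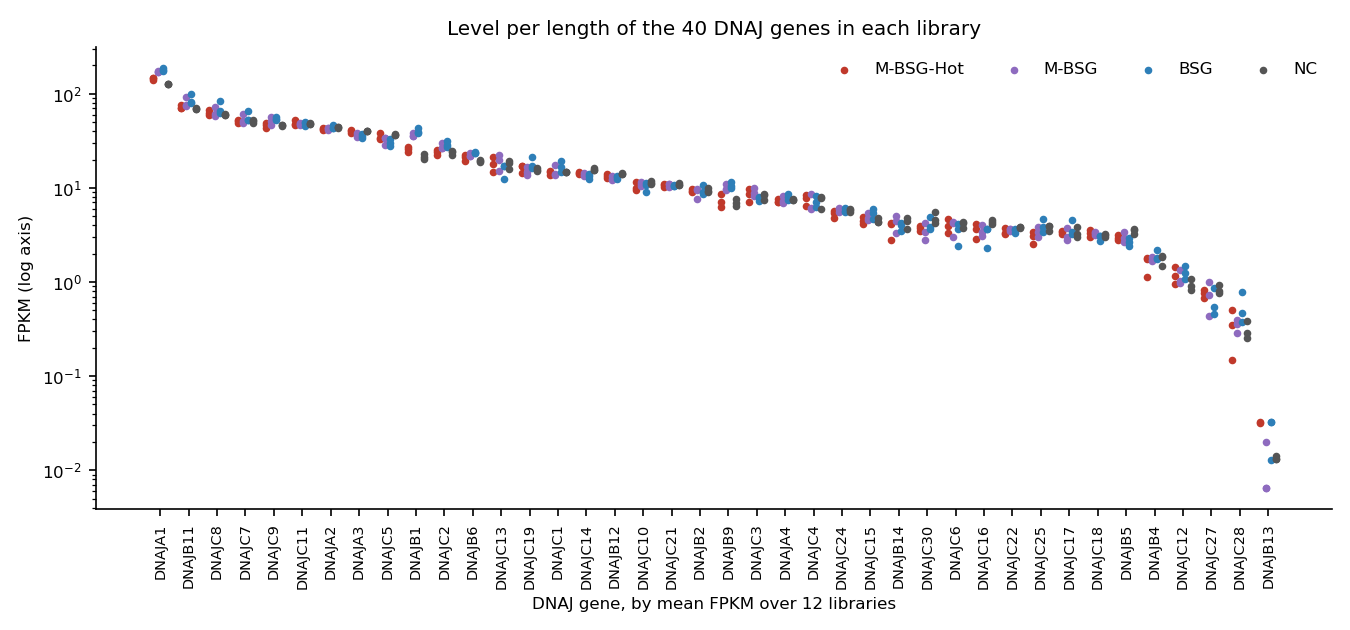
FPKM (log axis) of the 40 DNAJ genes in each of 12 libraries, 1 point per library coloured by group, genes ordered by their mean; a value of 0 (DNAJB13 in M-BSG-Hot 1) cannot be drawn. DNAJA1 is the highest gene with a mean of 156 FPKM, and DNAJB13 the lowest with 0.018 FPKM.

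BSG against NC gave the largest number of called DNAJ genes. Of 39 tested, 7 were higher in BSG and 0 lower (17.9% higher), where 5.5% of all 15407 genes tested were higher and 6.22% lower. The called genes were the cytosolic DNAJA1, DNAJB1 and DNAJB6, the endoplasmic reticulum members DNAJB9 and DNAJB11, the ribosome-associated DNAJC2 and the histone co-chaperone DNAJC9. Subfamily A had 1 of 4 called, subfamily B 4 of 9 and subfamily C 2 of 26. The median log2 fold change was 0.088 over the 39 and -0.017 over all genes, and 17 of the 39 had an unadjusted p under 0.05, 4 of them lower in BSG. For counts at an unadjusted p, here and below, the share of all genes was not computed. Such counts are not read as a result about the DNAJ genes. DESeq2 and limma-voom also called 0 lower. In bulk RNA, a change in part of the cells and a smaller change in all of them cannot be told apart. Scaling by library size alone turned the calls over all genes to 574 higher and 1346 lower, against 847 higher and 959 lower with TMM, and there 6 DNAJ genes were higher and 2, DNAJB5 and DNAJC14, lower.

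DNAJB1 had the largest change of these 7. It had 97.6, 105 and 114 CPM in M-BSG-Hot, 148, 144 and 157 CPM in M-BSG, 163, 174 and 162 CPM in BSG, and 90.5, 83.6 and 80.6 CPM in NC. Every library of the 3 other groups lay above every NC library, and M-BSG-Hot lay below M-BSG and BSG without overlap. BSG was 1.96-fold NC, a log2 fold change of 0.97 ± 0.079 (SE; edgeR adjusted p = 2.34e-06). M-BSG was 1.76-fold NC, 0.82 ± 0.079 (edgeR adjusted p = 2.05e-05), and M-BSG-Hot 1.24-fold NC, 0.31 ± 0.078 (edgeR adjusted p = 0.0328).

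DNAJA1 had 342, 337 and 337 CPM in M-BSG-Hot, 405, 388 and 405 CPM in M-BSG, 458, 409 and 416 CPM in BSG, and 285, 284 and 281 CPM in NC. The 4 groups did not overlap and ran, from the lowest, NC, M-BSG-Hot, M-BSG and BSG. The log2 fold change against NC was 0.59 ± 0.065 in BSG (SE; edgeR adjusted p = 5.22e-05), 0.49 ± 0.065 in M-BSG (edgeR adjusted p = 0.000323) and 0.26 ± 0.065 in M-BSG-Hot (edgeR adjusted p = 0.0372). As the most abundant member it carried part of the family total: DNAJA1 made up 12.6% to 12.9% of the summed DNAJ CPM in M-BSG-Hot, 14.1% to 14.6% in M-BSG, 14.5% to 15.4% in BSG and 11.2% to 11.3% in NC.

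DNAJB9 helps direct misfolded endoplasmic reticulum proteins to degradation. It had 15.3, 20.8 and 17.7 CPM in M-BSG-Hot, 23.6, 26.0 and 23.6 CPM in M-BSG, 25.5, 24.8 and 28.4 CPM in BSG, and 15.2, 17.4 and 16.1 CPM in NC. BSG and M-BSG lay above all NC libraries, whereas M-BSG-Hot overlapped NC. The log2 fold change was 0.69 ± 0.11 in BSG (SE; edgeR adjusted p = 0.00112) and 0.59 ± 0.11 in M-BSG (edgeR adjusted p = 0.00495). In M-BSG-Hot it was 0.14, with a 95% interval of -0.095 to 0.38 and an edgeR adjusted p of 0.553.

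DNAJB6 suppresses aggregation of polyglutamine proteins. It had 81.2, 76.5 and 72.5 CPM in M-BSG-Hot, 80.6, 77.8 and 83.4 CPM in M-BSG, 89.8, 86.5 and 86.6 CPM in BSG, and 67.7, 67.5 and 65.4 CPM in NC. All libraries of the 3 other groups exceeded all NC libraries, and M-BSG-Hot and M-BSG overlapped each other. The log2 fold change against NC was 0.39 ± 0.068 in BSG (SE; edgeR adjusted p = 0.00209) and 0.27 ± 0.068 in M-BSG (edgeR adjusted p = 0.0294). In M-BSG-Hot it was 0.20 and did not pass (edgeR adjusted p = 0.13).

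The other 3 called genes passed in BSG against NC and in no other comparison. DNAJB11, which binds unfolded and nascent secretory proteins with HSPA5, had 117, 125 and 119 CPM in M-BSG-Hot, 156, 120 and 124 CPM in M-BSG, 171, 134 and 133 CPM in BSG, and 109, 108 and 110 CPM in NC. The first libraries of BSG and M-BSG, which stood apart, were the highest, and the log2 fold change of BSG against NC was 0.42 ± 0.11 (SE; edgeR adjusted p = 0.0282). DNAJC2, which with HSPA14 forms the ribosome-associated chaperone complex for nascent chains, had 60.1, 63.4 and 57.4 CPM in M-BSG-Hot, 76.3, 65.3 and 65.7 CPM in M-BSG, 82.3, 66.8 and 72.6 CPM in BSG, and 59.2, 53.6 and 59.1 CPM in NC. Its log2 fold change in BSG was 0.37 ± 0.093 (SE; edgeR adjusted p = 0.0223), again with BSG 1 the highest library. DNAJC9 had 99.8, 108 and 117 CPM in M-BSG-Hot, 133, 106 and 116 CPM in M-BSG, 135, 119 and 125 CPM in BSG, and 103, 101 and 103 CPM in NC. Its log2 fold change in BSG was 0.30 ± 0.091 (SE; edgeR adjusted p = 0.0477), the weakest of the 7. Without BSG 1 the edgeR adjusted p was 0.0986 for DNAJB11, 0.0764 for DNAJC2 and 0.137 for DNAJC9, and without any one of the NC libraries all 3 were likewise past 0.05 (0.0522 to 0.146), so that 4 genes were left. With BSG 1, M-BSG 1 and M-BSG-Hot 3 left out together, all 7 passed, where 7.07% of all genes were higher, with log2 fold changes of 0.28 for DNAJB11, 0.27 for DNAJC2 and 0.24 for DNAJC9 (edgeR adjusted p = 0.00271, 0.00897 and 0.0138). DNAJC9 also missed the threshold without BSG 3 (0.0838), without M-BSG 3 (0.0677) and without M-BSG-Hot 2 (0.0608). The same held with scaling by library size only (0.0858) and with no filter on low counts (0.059).

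**Figure D2:**
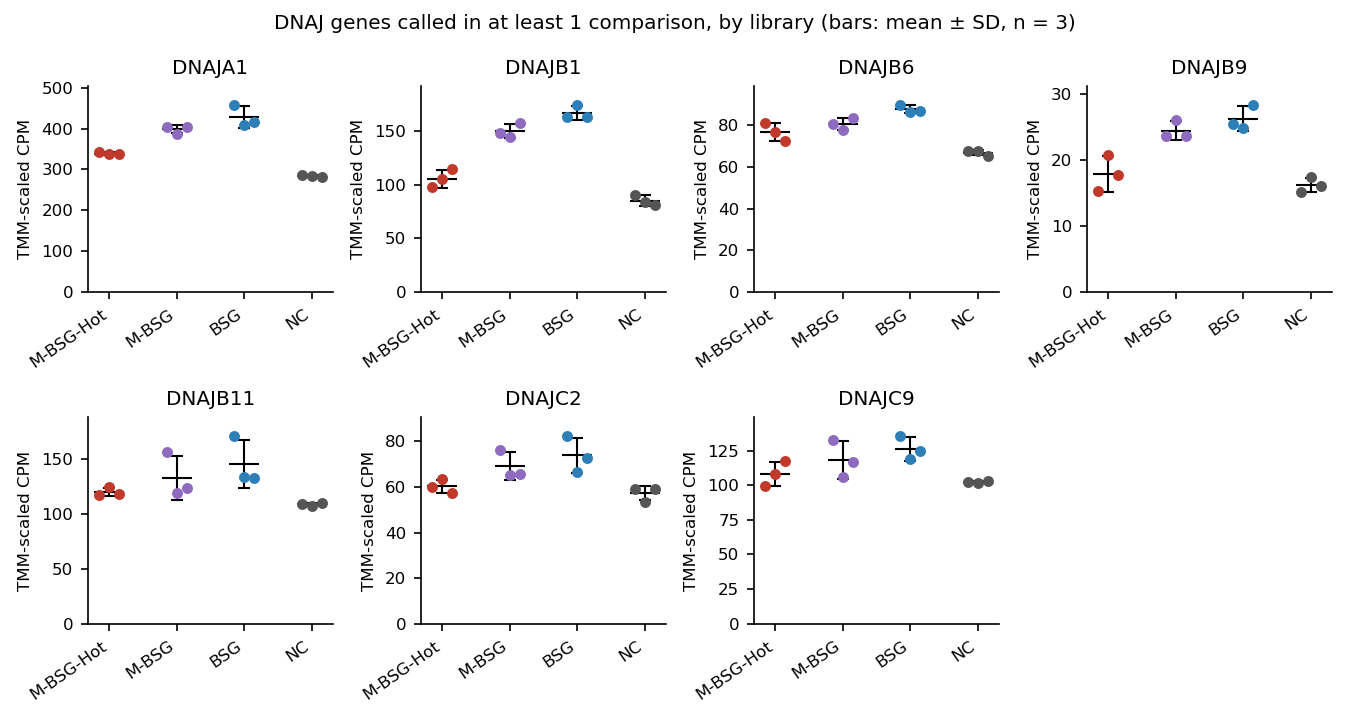
TMM-scaled CPM of the 7 DNAJ genes called in at least 1 comparison, 1 panel per gene and 1 point per library, with bars for mean ± SD over 3 libraries and axes from 0. DNAJB1 averages 106 CPM in M-BSG-Hot, 150 CPM in M-BSG, 166 CPM in BSG and 84.9 CPM in NC.

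All BSG libraries lay above all NC libraries for 18 of the 39 DNAJ genes (46.2%, beside 18.1% of all genes tested) and below them for 5 (12.8%, beside 20.6%). Of the 32 never called in any comparison, 11 lay above and 5 below. The nearest to the threshold was DNAJC15, a regulator of mitochondrial import and respiration, with 46.6, 39.9 and 35.2 CPM in BSG and 34.5, 30.7 and 31.2 CPM in NC (log2 fold change 0.34 ± 0.11, SE; edgeR adjusted p = 0.0635). DNAJC5, the vesicle-bound cysteine string protein, had 197, 223 and 206 CPM in BSG and 245, 236 and 238 CPM in NC (-0.20 ± 0.083, SE; edgeR adjusted p = 0.125). The log2 fold changes of the tested DNAJ genes in BSG ran from -0.38 for DNAJC16 to 0.97 for DNAJB1. DNAJC28, at about 1 CPM or below, had 0.91 with an interval of -0.0048 to 1.83, which includes 0.

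M-BSG against NC called 4 DNAJ genes higher and 0 lower: DNAJA1, DNAJB1, DNAJB6 and DNAJB9. This was 10.3% of the 39 tested, where 3.22% of all genes were higher and 3.13% lower. By subfamily, 1 of 4 in A, 3 of 9 in B and 0 of 26 in C were called. The median log2 fold change was 0.049, against -0.0070 over all genes, and 8 of the 39 had an unadjusted p under 0.05, 1 of them lower in M-BSG. DESeq2 and limma-voom also called 0 lower. DNAJB6 lost its call without any one of the NC libraries (edgeR adjusted p = 0.0907 to 0.139), and without M-BSG 1 (0.0579), M-BSG 2 (0.0522) or M-BSG 3 (0.136). The call was also lost with no filter on low counts, and with scaling by library size only (0.103). That scaling gave 406 genes higher and 671 lower over all genes, against 496 and 483 with TMM.

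M-BSG-Hot against NC called 2 DNAJ genes higher and 0 lower, DNAJA1 and DNAJB1, or 5.13% of the 39. Over all genes 1.4% were higher and 3.51% lower, and with scaling by library size only the calls were 149 higher and 673 lower, against 215 and 541 with TMM. The median log2 fold change of the 39 was 0.055, against 0.0024 over all genes, and 3 had an unadjusted p under 0.05, 0 of them lower in M-BSG-Hot. DESeq2 and limma-voom also called 0 lower. Both calls were near the threshold: under library-size scaling the edgeR adjusted p was 0.0861 for DNAJA1 and 0.0942 for DNAJB1. With no filter on low counts it was 0.0918 for DNAJA1 and 0.0531 for DNAJB1. DESeq2 called 3 higher, adding DNAJB6. DNAJB1 lost its edgeR call without NC 2 (0.143), NC 3 (0.173), M-BSG-Hot 2 (0.0694) or M-BSG-Hot 3 (0.113). DNAJA1 lost it without any one of the NC libraries (0.111 to 0.158) or any one of M-BSG-Hot (0.0798 to 0.103), and without BSG 3 (0.0512) or M-BSG 3 (0.0634). With BSG 1, M-BSG 1 and M-BSG-Hot 3 left out together, 3 were called, the third being DNAJB6. The 3 comparisons with NC share its 3 libraries, so their values are set side by side and their likeness is not a result.

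M-BSG-Hot and M-BSG carry the same material name in the titles, which set them apart by the word Hot and the plus sign. Of the 39 DNAJ genes 0 were higher and 1, DNAJB1, was lower in M-BSG-Hot (2.56%), where 0.0974% of all genes were higher and 0.597% lower. DNAJB1 fell to 106 ± 8.3 CPM in M-BSG-Hot, against 150 ± 6.7 CPM in M-BSG (SD, n = 3 each), a log2 fold change of -0.50 ± 0.078 (SE; edgeR adjusted p = 0.00864), with no overlap. DNAJB9 averaged 17.9 ± 2.8 CPM in M-BSG-Hot and 24.4 ± 1.4 CPM in M-BSG, also without overlap, and did not pass (-0.45, 95% interval -0.68 to -0.21; edgeR adjusted p = 0.113). DNAJA1 averaged 339 ± 2.8 CPM in M-BSG-Hot and 399 ± 9.8 CPM in M-BSG (-0.24, 95% interval -0.38 to -0.096; edgeR adjusted p = 0.169). DNAJC2 likewise had all 3 M-BSG-Hot libraries below M-BSG (-0.20; edgeR adjusted p = 0.57), which made 4 such genes (10.3% of the 39, beside 7.5% of all genes). For DNAJA3, a mitochondrial member, all 3 lay above M-BSG (2.56%, beside 6.28%). The median log2 fold change was -0.020, against -0.00082 over all genes, and 3 of the 39 had an unadjusted p under 0.05. Without M-BSG 3 the adjusted p of DNAJB1 was 0.0777, without M-BSG-Hot 1 it was 0.058, and without M-BSG-Hot 2 DNAJB9 was called as well. DESeq2 called DNAJB1, DNAJA1 (adjusted p = 0.00672) and DNAJB9 (adjusted p = 0.0142) lower, where it called 1.49% of all genes lower.

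M-BSG against BSG called 0 DNAJ genes in either direction, where 0% of all genes were higher and 0.13% lower, and DESeq2 and limma-voom also called 0 DNAJ genes. At an unadjusted p under 0.05 there was 1, DNAJC19, of the mitochondrial import motor, with -0.29 (edgeR adjusted p = 0.635). Among the genes called elsewhere, DNAJB1 differed by -0.15 on the log2 scale (95% interval -0.32 to 0.015), DNAJA1 by -0.10 (-0.24 to 0.040) and DNAJB9 by -0.10 (-0.34 to 0.13). All 3 M-BSG libraries lay below all 3 BSG libraries for DNAJA1, DNAJB1 and DNAJB6 (7.69% of the 39, beside 4.82% of all genes) and above them for DNAJC3 (2.56%, beside 4.08%). The median log2 fold change of the 39 was -0.092, against -0.0028 over all genes. BSG and M-BSG-Hot were not tested against each other.

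**Figure D3:**
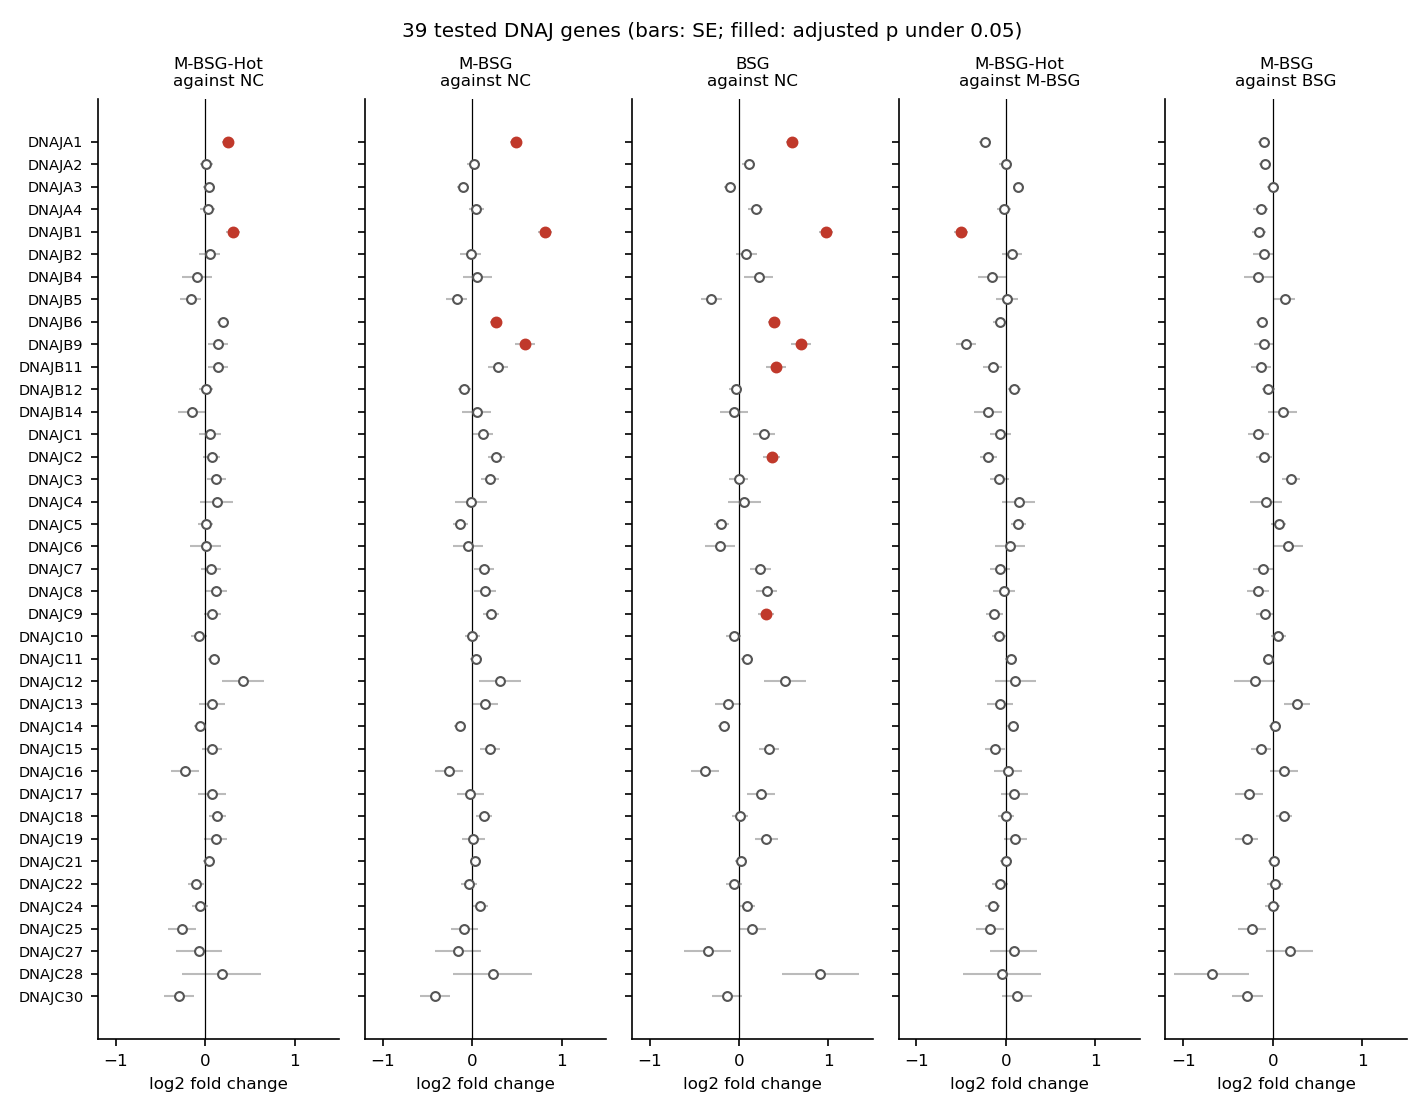
Log2 fold change (x axis) of the 39 tested DNAJ genes (rows) in 5 comparisons, with bars for the SE and filled points for edgeR adjusted p under 0.05. In BSG against NC 7 points are filled, in M-BSG against NC 4, in M-BSG-Hot against NC 2, in M-BSG-Hot against M-BSG 1 (DNAJB1, at -0.50) and in M-BSG against BSG 0.

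By subfamily, the summed level of the 4 A genes was 602 ± 6.4 CPM in M-BSG-Hot, 653 ± 12 CPM in M-BSG, 692 ± 34 CPM in BSG and 542 ± 6.0 CPM in NC (SD, n = 3 each). The 10 B genes summed to 446 ± 6.6 CPM in M-BSG-Hot, 512 ± 25 CPM in M-BSG, 552 ± 26 CPM in BSG and 405 ± 3.1 CPM in NC. In both subfamilies every library of the 3 other groups exceeded every NC library. The 26 C genes summed to 1607 ± 41 CPM in M-BSG-Hot, 1624 ± 35 CPM in M-BSG, 1626 ± 29 CPM in BSG and 1571 ± 5.7 CPM in NC, and M-BSG-Hot overlapped NC. Without DNAJA1, the other 3 A genes summed to 263 ± 5.9 CPM in M-BSG-Hot, 254 ± 1.8 CPM in M-BSG, 265 ± 7.1 CPM in BSG and 258 ± 5.0 CPM in NC, and each group overlapped NC. Without DNAJB1, the other 9 B genes summed to 340 ± 11 CPM in M-BSG-Hot, 363 ± 23 CPM in M-BSG, 386 ± 29 CPM in BSG and 320 ± 2.8 CPM in NC, with no overlap with NC. These 9 include DNAJB6, DNAJB9 and DNAJB11, called higher in BSG against NC. The uncalled B genes tested had 0.082 (DNAJB2), 0.22 (DNAJB4), -0.31 (DNAJB5), -0.039 (DNAJB12) and -0.057 (DNAJB14) on the log2 scale in that comparison. Without DNAJA1 and DNAJB1, the family total was 2211 ± 47 CPM in M-BSG-Hot, 2241 ± 50 CPM in M-BSG, 2276 ± 64 CPM in BSG and 2149 ± 3.4 CPM in NC. These sums are descriptions, and no test was run on them.

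By the place where the proteins work, 3 of the 9 tested cytosolic folding genes were higher in BSG than in NC, as were 2 of 12 in the endoplasmic reticulum and 2 of 6 at the ribosome, spliceosome or chromatin, where 5.5% of all genes were higher. None of the 7 mitochondrial and none of the 4 vesicle, endosome and cilium genes (DNAJC5, DNAJC6, DNAJC13 and DNAJC27) was called by edgeR in any of the 5 comparisons. Over all genes, 0% to 6.22% were called by comparison and direction. In sets this small 0 calls is near those shares and is not read as a difference between compartments. DNAJB13, named above as a cilium protein, was instead placed with the cytosolic folding genes. At an unadjusted p under 0.05, DNAJC15, DNAJC19 (both mitochondrial) and DNAJC5 passed in BSG against NC, DNAJC30, a mitochondrial protein, in M-BSG against NC, and DNAJC19 in M-BSG against BSG. DESeq2 called DNAJC15 higher in BSG against NC. With the 3 libraries left out together, the edgeR fit of M-BSG against NC called DNAJC13, an endosomal protein, higher and DNAJC30 lower. The cytosolic folding genes summed to 833 ± 8.3 CPM in M-BSG-Hot, 947 ± 33 CPM in M-BSG, 1021 ± 59 CPM in BSG and 741 ± 14 CPM in NC (SD, n = 3 each). The vesicle, endosome and cilium genes summed to 411 ± 44 CPM in M-BSG-Hot, 395 ± 48 CPM in M-BSG, 357 ± 35 CPM in BSG and 403 ± 7.9 CPM in NC. Within the endoplasmic reticulum, 10 of 12 genes were not called in BSG, among them DNAJC3, an inhibitor of the kinase PERK and a HSPA5 cofactor, and DNAJC10, a disulfide reductase.

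**Figure D4:**
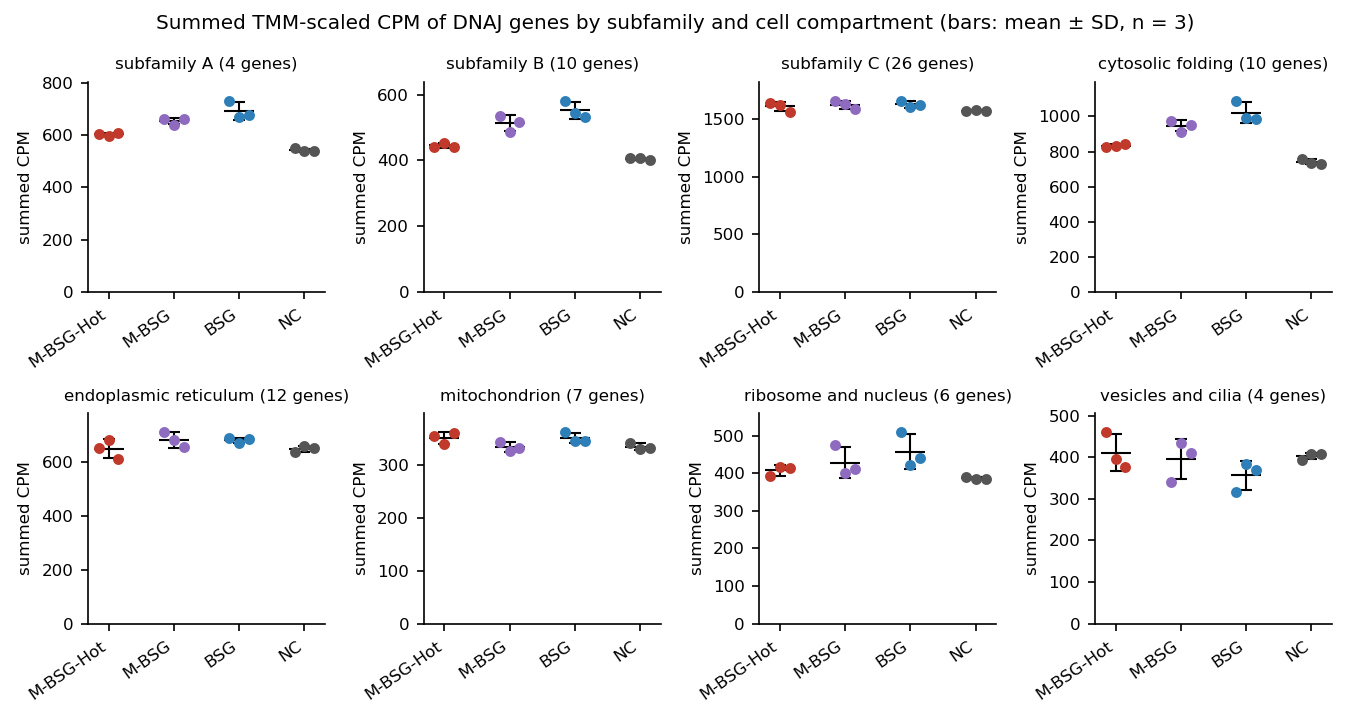
Summed TMM-scaled CPM of DNAJ genes by subfamily and by the compartment of the protein, 1 point per library, bars for mean ± SD over 3 libraries, axes from 0. Subfamily A and subfamily B lie above NC in all 3 other groups, while subfamily C in M-BSG-Hot overlaps NC.

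The HSP70 proteins are the enzymes that J proteins drive. The list takes genes by HSPA symbol and includes HSPA4 and HSPA4L, which are also listed below as nucleotide exchange factors. Of 13 tested, 7 were higher and 1 (HSPA12A) lower in BSG against NC, 6 were higher in M-BSG against NC and 5 were higher in M-BSG-Hot against NC. The shares of all genes called in these comparisons were 1.4% higher and 3.51% lower for M-BSG-Hot, 3.22% higher and 3.13% lower for M-BSG, and 5.5% higher and 6.22% lower for BSG. Their median log2 fold change against NC was 0.21 in M-BSG-Hot, 0.37 in M-BSG and 0.45 in BSG, beside medians over all genes of 0.0024 in M-BSG-Hot, -0.0070 in M-BSG and -0.017 in BSG. The stress-inducible HSPA1A had a log2 fold change against NC of 1.13 in M-BSG-Hot, 0.79 in M-BSG and 1.61 in BSG. The near-identical HSPA1B, with which it can share reads, had 0.93 in M-BSG-Hot, 1.03 in M-BSG and 1.49 in BSG. HSPA2, a paralog with a known role in spermatogenesis, had 1.75 in M-BSG-Hot, 1.97 in M-BSG and 2.57 in BSG, and averaged 34.6 CPM in M-BSG-Hot, 40.5 CPM in M-BSG and 61.0 CPM in BSG, against 10.3 CPM in NC.

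Of the HSP70 genes, 3 are described here as partners of called DNAJ genes, and this is not a complete list of such partners. HSPA8, the constitutive cytosolic partner of DNAJA1, was higher by a log2 fold change of 0.37 in M-BSG and 0.45 in BSG, and had 0.21 in M-BSG-Hot, which did not pass (edgeR adjusted p = 0.147). HSPA5, the endoplasmic reticulum partner of DNAJB9 and DNAJB11, was higher than in NC by 0.30 in M-BSG-Hot, 0.41 in M-BSG and 0.51 in BSG. HSPA14, the partner of DNAJC2, was higher by 0.37 in M-BSG-Hot, 0.57 in M-BSG and 0.74 in BSG. In M-BSG-Hot against M-BSG, edgeR called 0 of the 13 HSP70 genes, and 1 had an unadjusted p under 0.05. Over all genes 0.0974% were higher and 0.597% lower in that comparison, so 0 calls among 13 genes is near those shares. HSPA1A had a log2 fold change of 0.33 there (edgeR adjusted p = 0.35) and HSPA8 -0.16 (edgeR adjusted p = 0.573). In M-BSG against BSG, HSPA1A was lower, with a log2 fold change of -0.81 (edgeR adjusted p = 0.0094).

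**Figure D5:**
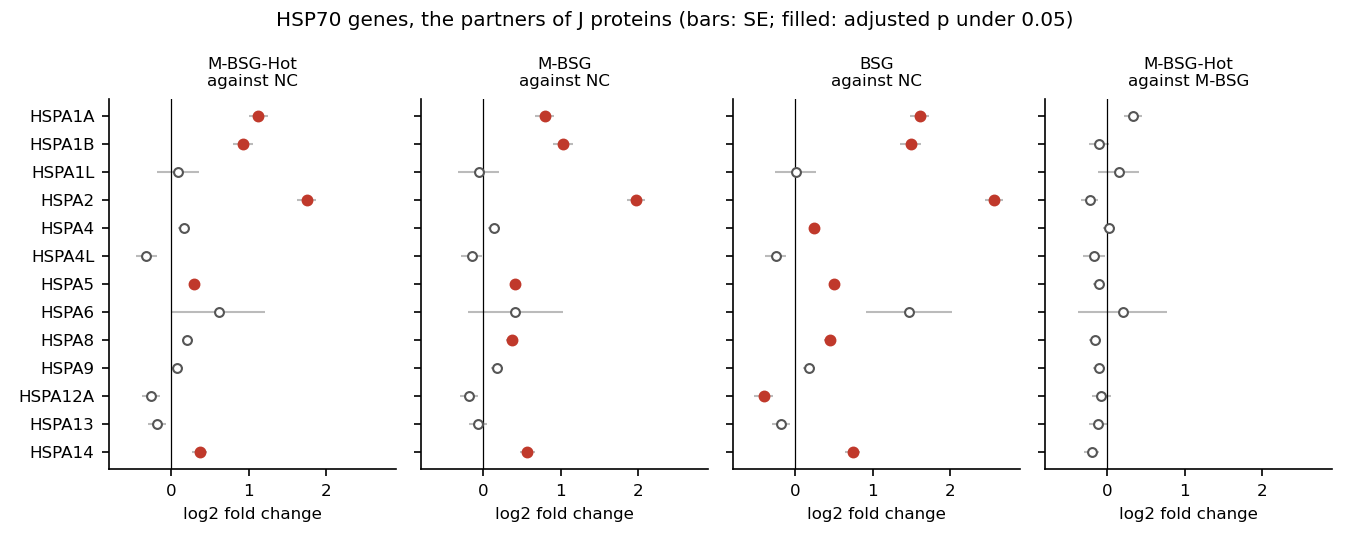
Log2 fold change (x axis, the same range in each panel) of 13 tested HSP70 genes (rows) in 4 comparisons, with bars for the SE and filled points for edgeR adjusted p under 0.05. HSPA2 is the furthest from 0 in each comparison with NC, and no point is filled in M-BSG-Hot against M-BSG.

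Other chaperone partners were counted in the same way, beside the same shares of all genes, which run from 1.4% to 6.22% by comparison and direction. With lists this short, 1 gene called is near those shares. The lists overlap, so the same call can be counted again: HSPA4 and HSPA5 are also among the HSP70 genes above. Of 14 nucleotide exchange factors, 5 were higher (HSPH1, HSPA4, BAG2, BAG3 and GRPEL1) and 2 lower (BAG5 and GRPEL2) in BSG against NC, 0 were called in M-BSG against NC (4 at an unadjusted p under 0.05), and 3 (BAG4, BAG5 and GRPEL2) were lower in M-BSG-Hot against NC. Of 14 HSP90 proteins and co-chaperones, HSP90AA1, HSP90AB1 and AHSA1 were higher in BSG, HSP90AB1 alone in M-BSG and 0 in M-BSG-Hot (2 at an unadjusted p under 0.05). Of 9 heat shock factors, small heat shock proteins and mitochondrial chaperonins tested, HSPD1 and HSPE1 were higher and HSF4 lower in BSG, HSPB8 was lower in M-BSG and HSF4 lower in M-BSG-Hot. Of 17 endoplasmic reticulum partners, HSPA5, the translocon subunit SEC61B and the degradation factor HERPUD1 were higher in BSG, HSPA5 and HERPUD1 in M-BSG and HSPA5 in M-BSG-Hot. The 5 tested J-domain proteins with other symbols had 0 calls in all 5 comparisons, with 0 to 1 at an unadjusted p under 0.05 in each. The median log2 fold change of BSG against NC was 0.13 for the nucleotide exchange factors, 0.19 for the HSP90 list, 0.25 for the heat shock factor list, 0.11 for the endoplasmic reticulum partners and 0.11 for the other J-domain proteins, beside -0.017 over all genes.

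Some DNAJ values share an uncertainty of counting, since the sources used here do not say whether strand was used or how reads with several matches were treated. DNAJC9 has an antisense neighbour, DNAJC9-AS1, counted at 2.72 to 5.67 CPM and not called against NC in M-BSG-Hot, M-BSG or BSG. DNAJC3-DT, a divergent transcript beside DNAJC3, was lower in BSG against NC by a log2 fold change of -1.13 (edgeR adjusted p = 0.00289), at no more than 2.76 CPM. The human annotation GENCODE v29 lists pseudogenes named for DNAJA1 (6), DNAJC19 (9), DNAJB1, DNAJB5 and DNAJC8 (1 each), whose reads could be split from or added to the parent gene.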

How the data were processed

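Per the labels' protocols, libraries were made with a SMARTER mRNA-Seq kit from RNeasy-extracted total RNA. The authors deposited, for each of 12 libraries, whole-number counts per gene symbol and FPKM values. The deposited FPKM equal the count per gene length and library total in 100% of 230445 values (relative tolerance 1e-06). They serve only to compare levels between genes. Although the symbols are human, GRCm38 and mm10 (mouse) are the builds in the submitters' processing notes, so the files' build is unresolved. Aligner and counter: not given in the sources used here. Promoter coordinates come from RefSeq alone.

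Counts were tested with edgeR 4.0.16 (R 4.3.3): TMM factors of 0.951 to 1.05, filterByExpr with a minimum count of 10 (15407 genes kept), and a quasi-likelihood model of the 4 groups over all 12 libraries. P-values were Benjamini-Hochberg adjusted over all tested genes, and genes under 0.05 are called. The fit was tested on simulated data. Intervals are 95%, on the fit's 13.8 degrees of freedom. DESeq2 1.42.0, limma 3.58.1 (voom), other scalings, no filter, a fit of the compared groups only, a replicate block and left-out libraries were alternatives. The chi-square between replicates was 3.37 or more per degree of freedom, so all were kept as separate samples. The marker genes COL1A2, PTPRC, CD3E and KRT14 are not analysed here. Members and lists were chosen with earlier results of these data known. By rule, each member called in at least 1 comparison, and DNAJB1, DNAJA1 and DNAJB9, were described by library, and the rest by range. DNAJC15, DNAJC5, DNAJC28 and others named outside this rule were chosen after their values were seen.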

Additional observations from a re-analysis of the deposited data

How the results depend on the processing

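The alternatives were followed for 20 single-gene fold changes: those of called DNAJ genes, and of DNAJB1, DNAJA1 and DNAJB9 in every comparison. Over 20 alternatives, 0 of these 20 reversed. The other fold changes given above were not followed in this way. DNAJB1, DNAJA1, DNAJB6 and DNAJB9 in BSG against NC, and DNAJB1, DNAJA1 and DNAJB9 in M-BSG against NC, passed under every one. Of 14 calls, the other 7 were lost under at least 1 alternative, and the cause was not tested. The number of DNAJ genes higher in BSG against NC was 7 and ran from 4 to 8 as single libraries were left out, and the number in M-BSG against NC was 4 and ran from 3 to 5. The number lower in BSG against NC was 0, with 2 under library size only (DNAJB5 and DNAJC14) and 1 with BSG 1, M-BSG 1 and M-BSG-Hot 3 left out together (DNAJB5). That last fit also gave 1 lower in M-BSG against NC (DNAJC30), against 0. The number higher in M-BSG-Hot against NC was 2, with 0 under library size only, 0 with no filter on low counts, and 0 to 2 as single libraries were left out. The number lower in M-BSG-Hot against M-BSG was 1, with 3 under DESeq2, 0 in a fit of both groups alone (DNAJB1 adjusted p = 0.0689), and 0 to 2 as single libraries were left out.

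Replicate numbers gave no clear pairing over all groups. Same-numbered libraries of different groups had correlations of deviations from -0.287 to 0.408, of which 4 of 18 were over 0.1. Among NC, BSG and M-BSG all such correlations were positive (0.0356 to 0.408), whereas those with M-BSG-Hot ran from -0.287 to 0.0333. Of 12 libraries, 5 correlated best with their own number. A replicate block called 1 DNAJ gene higher in M-BSG-Hot against NC (DNAJB1 adjusted p = 0.0521) against 2 without it, and 8 in BSG against NC (DNAJC15 added) against 7. Depth limits DNAJB13 and DNAJC28, at about 1 CPM or less.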
